A study of Rattus norvegicus with 6 samples.

Results

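Heat shock chaperones of the cytosol, nucleus and mitochondria, with their co-chaperones and transcription factors, were examined in primary rat brain microvascular endothelial cells (rBMECs) exposed to homocysteine (Hcy). Members were taken by gene name: the HSP90, HSP70, HSP110, small heat shock protein, mitochondrial chaperonin, CCT, DNAJ, BAG and HSF names, without the endoplasmic reticulum (ER) genes Hspa5, Dnajb9, Dnajb11 and Dnajc3. The rule used no measured value and found 88 of the 33566 genes in the deposited table, of which 77 had enough reads to be tested and 11 did not. The rule is one of spelling, so it also took a few genes that act elsewhere, such as Dnajc10 of the ER and Hsf2bp, a binding partner of the factor Hsf2. It did not take Tcp1, the first CCT subunit.

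The study asked how Hcy, a sulphur amino acid, changes gene expression in the cells that form the blood–brain barrier. The cells came from SD rats 18 to 22 days old, from the cerebral cortex by the labels and the forebrain by the study's methods, were purified in culture and were used after a single passage. Poly(A) RNA was sequenced from 3 libraries of cells labelled as given 100 μM Hcy for 24 h and from 3 libraries of cells given the water used as vehicle (Veh). The label that gives this dose and the study's methods also name a prepared Hcy solution of 50 μmol/L, so the dose that the cells received is not settled. The design text calls the 3 libraries of a group biological replicates. It does not say whether they came from separate animals or isolations, so p-values measure the spread between these libraries.

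Chaperones bind unfolded proteins and help them to fold, to assemble or to be degraded. HSP70 works in cycles of ATP hydrolysis that J proteins (the DNAJ family) start and that nucleotide exchange factors (the BAG proteins and the HSP110 type) complete, and HSP90 takes over clients such as kinases and receptors. The CCT ring folds actin and tubulin, the HSP60 and HSP10 chaperonin folds proteins inside mitochondria, and small heat shock proteins hold unfolded proteins until HSP70 arrives. In stressed cells the factor HSF1 raises many of these genes at once by binding heat shock elements in their promoters.

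Libraries held 14024997 to 16764584 reads counted on genes, and 3 counts, taken as the floor of detection, corresponded to 0.178 to 0.215 CPM (counts scaled to library size). This floor covers counting error only. Of 15 endothelial markers, 13 were in the table, and their summed level was 11000 to 11400 CPM in Hcy and 9610 to 11000 CPM in Veh libraries. The endothelial marker Cldn5 was at 0 counts in all 6 libraries. The 4 smooth muscle markers summed to 673 to 702 CPM in Hcy and to 1120 to 1350 CPM in Veh libraries, and 3 of them, Acta2, Tagln and Cnn1, were lower in Hcy by adjusted p. In these bulk samples, fewer cells of a type cannot be told apart from less RNA per cell. The summed fibroblast markers lay at 35.7 to 57.8 CPM in Hcy and at 57.5 to 83.9 CPM in Veh, with 0 of 3 tested genes called, and pericyte, oligodendrocyte, neuron, microglia and astrocyte lists summed to at most 12.2 CPM in any library. Aqp4, Cx3cr1, Ptprc, Rbfox3 and Snap25 were at 0 in all 6 libraries. The part of these cell types in the results below was not tested.

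Among the chaperone genes, Hsp90aa1 and Bag2 passed the test by adjusted p, both lower in Hcy, and the other tested members missed it. The test was edgeR's quasi-likelihood test, with p-values adjusted by Benjamini-Hochberg over the 14603 genes tested. Of the 77 tested members, 1 (Hsp90aa1) passed an adjusted p of 0.05 together with an absolute log2 fold change of 1, and it was lower in Hcy. In the background, 0.486% of all tested genes passed that rule and 0.233% passed it with lower values in Hcy. By adjusted p alone, 2 members (Hsp90aa1 and Bag2) were called, beside 2.34% of all tested genes in either direction and 1.01% in the lower direction. With all 6 libraries, 0 members were called higher by either rule in edgeR or in DESeq2. Without Veh replicate 3, edgeR called 5 by adjusted p alone, with Hsp90ab1, Hspd1 and Dnajc9 higher and Hsp90aa1 and Bag2 lower, and the count ran from 0 to 5 as each library was left out. That fit also called more of all tested genes by adjusted p and fold together, 119 beside 71 with all 6 libraries. The members' count by both stayed at 1. The share of all genes by adjusted p alone in that fit is not given here, so the 5 have no background. At an unadjusted p of 0.05, 5 members were higher and 4 were lower, that is 9 of 77, beside 13.4% of all tested genes. The CPM of the groups did not overlap for 18 members, 9 in each direction, beside 20.1% of all tested genes. The shares by adjusted p alone in either direction, by unadjusted p and by overlap were close to the background, so these counts do not set the members apart from other genes.

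The median fitted log2 fold change was −0.033 over the 77 members and −0.015 over all tested genes. With 1 library left out the members' median ran from −0.042 to 0.008, and it turned positive without Veh replicate 3. It lay within 0.25 of zero for 61 members (79.2%), beside 66.0% of all tested genes. Many members are abundant and so better measured than the average gene. At a depth of 100 or more summed counts, 59 of 69 members (85.5%) lay within 0.25, beside 76.0% of 11706 genes. The median coefficient of variation in these genes was 8.43% between Veh libraries and 5.89% between Hcy libraries for members, and 11.3% and 7.45% for all genes of that depth. Veh replicate 3 was the highest of the 3 Veh libraries for 43 of the 69 members, and for 4857 of the 11706 genes.

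**Figure D1:**
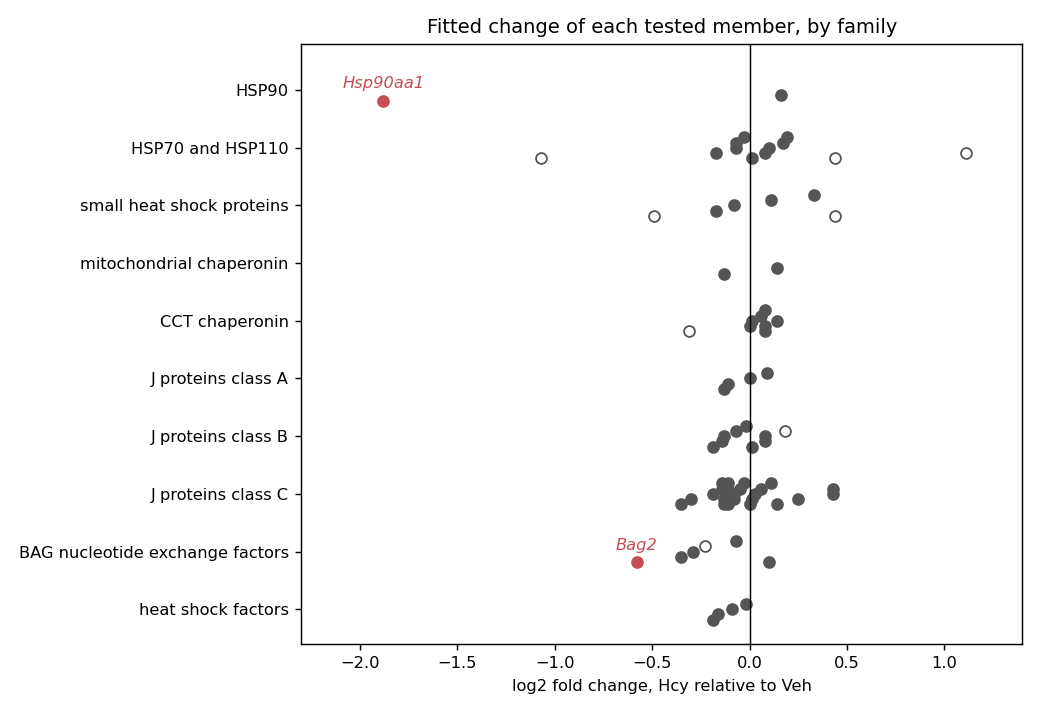
Fitted log2 fold change of Hcy relative to Veh for the 77 tested members, 1 point a gene, in rows by family. Open circles had fewer than 100 counts summed over the 6 libraries, and red points had an adjusted p of at most 0.05. Most filled points lie within 0.25 of zero, Hsp90aa1 stands at −1.88 and Bag2 at −0.58.

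Per gene length, the members took 1.01% ± 0.00674 (SD, n = 3) of all TPM (counts divided by gene length and scaled to a fixed total) in Hcy libraries and 0.953% ± 0.0105 in Veh libraries. The ranges, 1.00 to 1.02% and 0.946 to 0.965%, did not overlap, and an exact two-sided permutation test gave p = 0.1, the smallest value that 3 against 3 libraries allow. The lowest Hcy library exceeded the highest Veh library in summed family TPM for HSP90 (1590 ± 25.3 against 1410 ± 32.2 TPM), for HSP70 and HSP110 (2560 ± 50.0 against 2400 ± 77.7), for the CCT subunits (2340 ± 19.8 against 2190 ± 26.1) and for class A J proteins (658 ± 5.91 against 630 ± 12.7), each with the exact permutation p of 0.1. BAG genes went the other way without separating, at 375 ± 3.25 in Hcy and 396 ± 15.6 in Veh (exact permutation p = 0.2). The remaining 5 families overlapped between the groups. These separations are in TPM, and family sums were not compared in CPM. In CPM, Veh replicate 3 exceeded every Hcy library for Cct3, Cct4, Cct5, Cct6b, Cct7, Cct8, Dnaja1, Dnaja2 and Dnaja3. It did not for Cct2, Cct6a or Dnaja4, the other tested genes of the CCT and class A families. In counts rather than TPM, members took 1.19 to 1.21% of a Hcy library and 1.11 to 1.20% of a Veh library, which overlapped (exact permutation p = 0.3). These sums are led by a few genes, chiefly Hspa8 and Hsp90ab1, which together held 0.416 to 0.437% of the counts in Hcy libraries and 0.375 to 0.408% in Veh libraries.

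**Figure D2:**
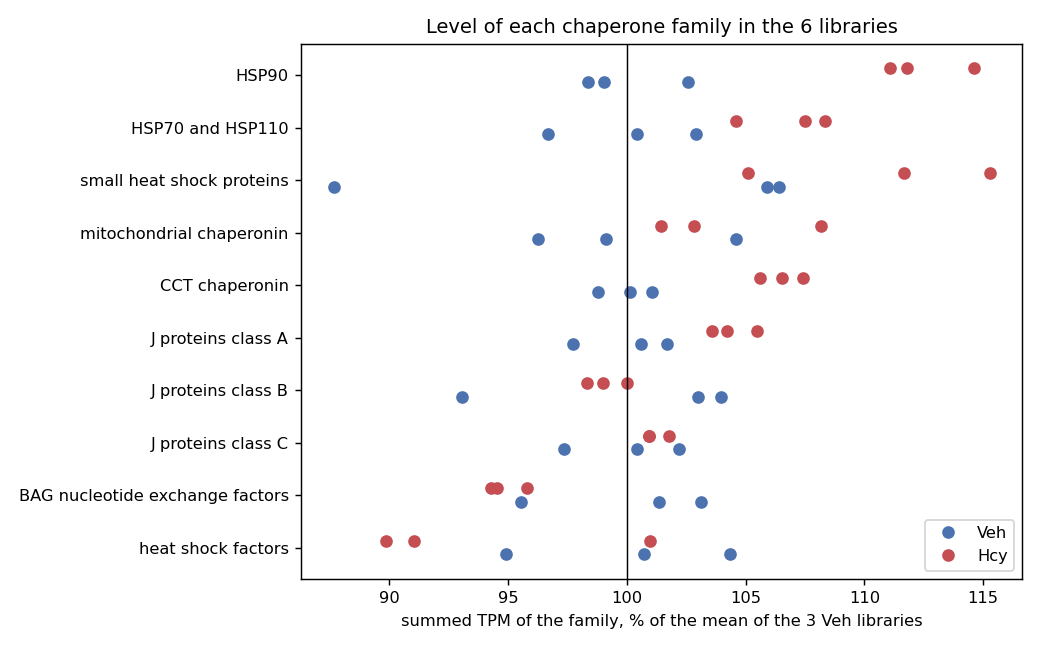
Summed TPM of each family in each library, as a percent of the mean of the 3 Veh libraries, with Veh in blue and Hcy in red. The Hcy points of HSP90, HSP70 and HSP110, CCT and class A J proteins lie to the right of all Veh points, while small heat shock proteins, the mitochondrial chaperonin, class B and C J proteins, BAG genes and heat shock factors overlap. This holds in TPM, and family sums were not compared in CPM.

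Because HSF1 acts through heat shock elements, promoter letters were read for the members from RefSeq's windows on the rat build GRCr8, from 250 bases before to 50 bases after each gene start. A heat shock element alternates the triplets GAA and TTC, each spaced by 2 free bases. Windows were searched for 2 such units in either order, GAANNTTC or TTCNNGAA, and for 3 units in a row. Each pair reads the same on both strands, and a run of 3 units holds both pairs, so these matches overlap. Of the 77 tested members, 59 had a window in the table. Hsp90aa1, Hspa1b and Hsf1 are among the 18 unmatched. GAANNTTC was in 14 of the 59 windows (23.7%) and in 8.59% of all 33469 windows. TTCNNGAA was in 13 (22.0%) and in 8.77%. A run of 3 units was in 6 (10.2%), namely Hspa8, Hsph1, Hspd1, Hspe1, Dnaja1 and Cct4, and in 0.798% of all windows. The 33469 windows include those of genes that were not tested. Hspd1 and Hspe1 share 1 element, so it counts for both. A match is a description of the letters, not a bound site.

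The stretches below show the letters before the start, 5′ to 3′ on the strand of the gene, with matches in capitals. Hspa8 (chr8:50080291-50080513, plus strand) is shown because it has a run of 3 units at 2 places. Hspd1 (chr9:64084208-64084287, minus strand) and Hspe1 (chr9:64084207-64084326, plus strand) are shown because their windows read the same element, 64084262 to 64084279, from opposite strands. Hsph1 (chr12:10427258-10427367, plus strand) is shown as the exchange factor with a run close to its start. Bag3 (chr1:192533310-192533459, plus strand) and Hspb8 (chr12:45837208-45837307, plus strand) are shown because both carry a single pair with identical letters. Bag2 (chr9:43476638-43476787, minus strand) is shown as the called member with a window, in which neither pair was found. For Bag2 and Hsph1 the strand of the window is opposite to the strand in the deposited positions. Whether these windows lie before the starts of the counted genes was not tested.
Hspa8: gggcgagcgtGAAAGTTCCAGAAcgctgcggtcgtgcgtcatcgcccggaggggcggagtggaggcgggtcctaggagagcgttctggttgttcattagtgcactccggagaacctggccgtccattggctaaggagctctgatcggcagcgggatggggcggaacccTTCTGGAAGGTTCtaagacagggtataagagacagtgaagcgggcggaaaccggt
Hspd1: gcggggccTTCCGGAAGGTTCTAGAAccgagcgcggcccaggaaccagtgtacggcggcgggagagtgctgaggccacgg
Hspe1: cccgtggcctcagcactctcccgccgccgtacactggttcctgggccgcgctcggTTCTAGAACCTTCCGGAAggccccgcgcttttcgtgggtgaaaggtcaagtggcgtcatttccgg
Hsph1: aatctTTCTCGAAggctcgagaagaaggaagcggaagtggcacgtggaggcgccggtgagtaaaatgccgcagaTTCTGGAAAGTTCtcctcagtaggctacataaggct
Bag3: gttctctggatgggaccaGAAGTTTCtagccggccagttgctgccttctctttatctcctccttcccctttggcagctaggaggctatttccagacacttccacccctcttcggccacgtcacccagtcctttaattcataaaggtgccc
Hspb8: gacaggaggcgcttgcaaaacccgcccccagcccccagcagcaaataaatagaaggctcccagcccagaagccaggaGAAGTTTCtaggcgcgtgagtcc
Bag2: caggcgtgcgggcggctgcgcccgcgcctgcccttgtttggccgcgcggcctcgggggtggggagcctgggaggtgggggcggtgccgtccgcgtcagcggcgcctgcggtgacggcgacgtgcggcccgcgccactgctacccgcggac

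None of the 6 genes with a run of 3 units passed the test. Their log2 fold changes were 0.17 for Hsph1, 0.14 for Hspd1, 0.09 for Dnaja1, 0.08 for Hspa8, 0.00 for Cct4 and −0.13 for Hspe1, with edgeR quasi-likelihood adjusted p-values (Benjamini-Hochberg) from 0.289 to 0.998. In Dnaja1 and Cct4 the run lies after the start, from position 10 to 22 and from position 26 to 38.

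HSP90 exists in the cytosol as a stress-inducible alpha form (Hsp90aa1) and a constitutive beta form (Hsp90ab1). The Hsp90aa1 row (ENSRNOG00000059714, chromosome 6, 135107271 to 135112775, minus strand in the positions as deposited, whose build the table does not name) held 137, 225 and 149 counts in Hcy and 651, 303 and 969 in Veh replicates 1 to 3. In CPM these were 9.84, 15.1 and 8.89 against 38.6, 19.3 and 67.1. All Hcy values lay below all Veh values, and Veh replicate 2 lay closest to the Hcy range. The means were 11.3 ± 3.35 and 41.7 ± 24.0 CPM (SD, n = 3), a 3.69-fold lower level in Hcy. The log2 fold change was −1.88 ± 0.40 (SE), with a 95% confidence interval from −2.79 to −0.97 and an adjusted p of 0.0493 in the edgeR quasi-likelihood test (Benjamini-Hochberg). The coefficient of variation of 57.7% between Veh libraries compares with the median of 8.43% among well-measured members.

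The Hsp90aa1 call sat close to its threshold and was lost, at an adjusted p of 0.0533 in edgeR, with a minimum of 50 summed counts. The adjusted p in edgeR rose to 0.206, 0.0967 and 0.228 without Hcy replicates 1, 2 and 3 and to 0.116 without Veh replicate 1, and fell to 0.0117 and 0.0163 without Veh replicates 2 and 3. The log2 fold change stayed between −2.23 and −1.36 in these fits.

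The beta form was far more abundant. Hsp90ab1 was at 2370, 2230 and 2240 CPM in Hcy and at 1990, 1930 and 2190 in Veh. The groups did not overlap, although the highest Veh library, replicate 3, came near the lowest Hcy library. Its log2 fold change was 0.16 ± 0.07 (SE), from 0.01 to 0.32, with an edgeR quasi-likelihood adjusted p of 0.338 (Benjamini-Hochberg). Without Veh replicate 3 it was 0.22 with an adjusted p of 0.0235 in the same test. Leaving out any other library kept the adjusted p above 0.05, up to 0.679. Per length, Hsp90ab1 was at 1580 TPM in Hcy and 1390 in Veh, while Hsp90aa1 was at 7.57 and 26.8 TPM.

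Several rows of the table match HSP90-alpha, so reads from the alpha gene may have been split among them or left out by the counting. LOC103692716 (chromosome 6, 135045363 to 135049728), a protein-coding row 57542 bases from Hsp90aa1, held 4.24, 9.07 and 6.33 CPM in Hcy and 19.1, 11.2 and 16.8 in Veh. These groups did not overlap either, and its log2 fold change was −1.26 ± 0.28 (SE) with an edgeR quasi-likelihood adjusted p of 0.0563 (Benjamini-Hochberg). The processed pseudogene LOC680491 overlapped between the groups, at 4.45 to 6.65 and 6.16 to 7.06 CPM. Summed over the 4 alpha rows with any count, Hcy libraries had 18.6, 30.8 and 20.5 CPM and Veh libraries 64.8, 37.1 and 90.0, that is 23.3 ± 6.59 and 64.0 ± 26.4 (SD, n = 3). With all rows of a protein summed before the fit, an alternative chosen after seeing the data, the Hsp90aa1 log2 fold change was −1.46 with an adjusted p of 0.0332 in the edgeR quasi-likelihood test (Benjamini-Hochberg). Of the counts on the alpha rows and Hsp90ab1 together, the alpha rows made up 0.779, 1.36 and 0.905% in Hcy and 3.14, 1.89 and 3.95% in Veh.

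**Figure D3:**
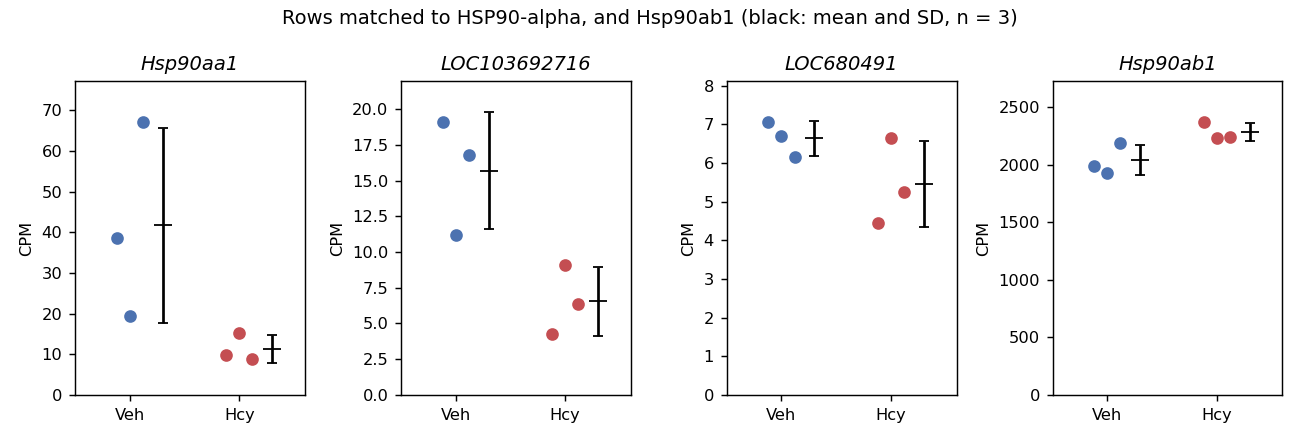
CPM in each library of the 3 best-covered rows matched to HSP90-alpha and of Hsp90ab1, each panel on its own axis from 0, with the mean and SD of 3 libraries in black. The Hcy points lie below the Veh points for Hsp90aa1 and LOC103692716, overlap them for LOC680491 and lie above them for Hsp90ab1, whose axis spans a far higher range.

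In the HSP70 and HSP110 family all 12 genes were tested, and 0 passed in edgeR's quasi-likelihood test or in DESeq2, with 2 higher and 0 lower at an unadjusted p of 0.05. Hspa8, the constitutive HSP70 and the most abundant member at a mean of 1790 TPM, was at 2030, 1920 and 1880 CPM in Hcy and 1730, 1780 and 1990 in Veh. Veh replicate 3 exceeded 2 of the 3 Hcy libraries. This gave 0.08 ± 0.07 (SE) on the log2 scale, with an interval from −0.08 to 0.25. Another 7 rows match the same protein, among them pseudogenes, and reads could have been shared with them. Their log2 fold changes ran from −0.40 to 0.41, and the lowest edgeR quasi-likelihood adjusted p was 0.193 (Benjamini-Hochberg).

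The stress-inducible HSP70 gene Hspa1b had a low listed level, at 3.09, 3.76 and 4.00 CPM in Hcy and 4.27, 3.25 and 3.88 in Veh, with a log2 fold change of −0.07 ± 0.21 (SE). Its row overlaps genes of the RT1-CE group and its protein match is shared with other rows, so the value is uncertain. The name rule would take Hspa1a, but it found no row of that name. Hspa1l, a relative known from testis, was at 0.255 to 1.21 CPM over the 6 libraries. Hspa2 was at 14.2 ± 1.17 CPM in Hcy and 14.9 ± 0.567 in Veh (SD, n = 3). Hspa9 or mortalin, the HSP70 of mitochondria, was at 209, 234 and 213 CPM in Hcy and at 208, 215 and 187 in Veh, which overlapped, with a log2 fold change of 0.10 ± 0.08 (SE).

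The HSP110 type releases ADP from HSP70 and helps to dissolve aggregates. Hsph1 was at 161, 163 and 161 CPM in Hcy and 145, 138 and 147 in Veh. All Hcy values were higher, the log2 fold change was 0.17 ± 0.07 (SE), from 0.02 to 0.32, and the edgeR quasi-likelihood adjusted p was 0.289 (Benjamini-Hochberg). Hspa4l had only 16, 17 and 17 counts in Hcy and 11, 8 and 5 in Veh. These did not overlap either, with a log2 fold change of 1.11 ± 0.38 (SE) and an adjusted p of 0.228 in the same test. The related Hspa4 did not separate, at 513, 543 and 512 CPM in Hcy and 513, 538 and 552 in Veh, with an interval of the log2 fold change from −0.18 to 0.11. Hspa12b, a distant relative known from endothelium, was at 249 ± 8.62 and 247 ± 9.68 CPM, from −0.14 to 0.16 on the log2 scale, whereas its relative Hspa12a had 0 to 7 counts a library.

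BAG proteins bind HSP70 and release its nucleotide. Apart from HSP90 they were the family with the lowest median, at −0.256 over 6 tested genes. Of these, 5 were fitted lower and 1 higher, beside 7749 lower and 6854 higher over all tested genes. Bag2 (ENSRNOG00000012709, chromosome 9, 38456468 to 38467118, plus strand as deposited), which blocks the ubiquitin ligase CHIP, held 301, 327 and 321 counts in Hcy and 488, 463 and 515 in Veh. In CPM these were 21.6, 22.0 and 19.2 against 29.0, 29.5 and 35.6. The groups were well apart, at 20.9 ± 1.53 and 31.4 ± 3.71 CPM (SD, n = 3). The fitted difference was −0.58 ± 0.11 (SE), from −0.84 to −0.33, with an adjusted p of 0.0336 in the edgeR quasi-likelihood test (Benjamini-Hochberg). With 1 library left out, the edgeR adjusted p was 0.0182 without Veh replicate 3 and above 0.05, up to 0.189, without any other library, while the log2 fold change stayed between −0.64 and −0.48.

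Bag3, which directs HSP70 clients to autophagy together with Hspb8, was at 63.8, 63.5 and 61.5 CPM in Hcy and at 85.5, 69.8 and 84.9 in Veh. All Hcy values lay below all Veh values. On the log2 scale the difference was −0.35 ± 0.09 (SE), from −0.56 to −0.14, with an adjusted p of 0.111 in the edgeR quasi-likelihood test (Benjamini-Hochberg) and 0.0406 in DESeq2. The smooth muscle markers were lower in the same libraries, and their part in the Bag2 and Bag3 values was not tested.

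The other BAG genes did not separate. Bag6, which handles proteins that miss their membrane, was at 250 ± 1.97 and 234 ± 13.3 CPM (SD, n = 3), with a log2 fold change of 0.10 ± 0.07 (SE). Bag1, which links HSP70 to the proteasome, was at 130, 124 and 126 CPM in Hcy and at 122, 119 and 160 in Veh, and only Veh replicate 3 was above the Hcy range. Bag5 had 0 to 3 counts a library and was not tested, and its copy Bag5l1 was at 0.179 to 0.554 CPM.

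**Figure D4:**
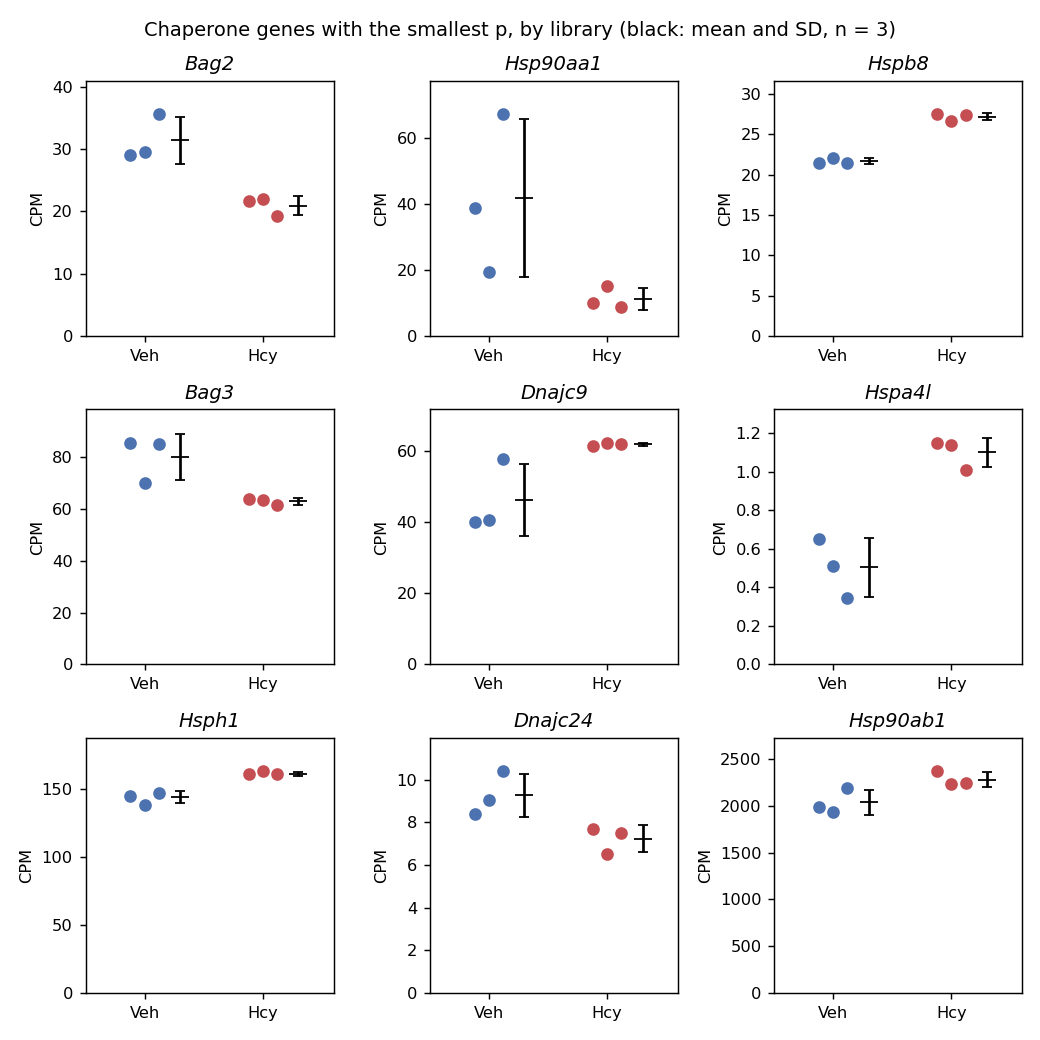
CPM in each library of the 9 members with an unadjusted p of at most 0.05, ordered by p from the upper left, with each axis starting at 0 and the mean and SD of 3 libraries in black. In each panel the groups do not overlap, and Bag2 and Hsp90aa1 are the panels with an adjusted p of at most 0.05.

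Of 8 small heat shock protein genes 6 were tested, and 0 passed in edgeR's quasi-likelihood test or in DESeq2, with 1 at an unadjusted p of 0.05. That gene was Hspb8, the partner of Bag3, at 27.5, 26.7 and 27.4 CPM in Hcy and at 21.5, 22.1 and 21.5 in Veh. The groups were apart and each group was tight. Their log2 difference was 0.33 ± 0.09 (SE), from 0.13 to 0.52, with an adjusted p of 0.105 in the edgeR quasi-likelihood test (Benjamini-Hochberg). Hspb8 and Bag3 thus had fitted values of opposite sign, and neither passed in that test. Hspb1 or HSP27, which binds actin filaments and was the third most abundant member by TPM, was at 310, 280 and 312 CPM in Hcy and at 283, 230 and 323 in Veh. Veh replicate 3 was the highest of the 6 libraries, and the interval of the log2 fold change ran from −0.15 to 0.38. Hspb6 was at 2.81 to 4.10 CPM in Hcy and at 3.70 to 4.36 in Veh. Hspb11, which belongs to the transport complex of cilia, was at 4.04 to 7.06 CPM over the 6 libraries, and Hspb2 and Hspb9 were at or near the floor.

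The HSP60 and HSP10 genes of the mitochondrial chaperonin lie head to head, and their RefSeq windows share the element printed above. The deposited positions place the genes 1197 bases apart, farther than the RefSeq starts, so the start sites differ between these annotations. Hspd1 was at 439, 430 and 445 CPM in Hcy and at 369, 385 and 442 in Veh, so that Veh replicate 3 fell inside the Hcy range. Its log2 fold change was 0.14 ± 0.08 (SE), from −0.04 to 0.31, and without Veh replicate 3 it was 0.22 with an edgeR quasi-likelihood adjusted p of 0.0316 (Benjamini-Hochberg). Leaving out any other library kept that adjusted p above 0.05, up to 0.795. Hspe1 was at 32.8, 35.6 and 28.8 CPM in Hcy and 34.2, 30.1 and 42.0 in Veh, with a log2 fold change of −0.13 ± 0.13 (SE). Per length the genes were closer, at 363 and 224 TPM in Hcy and 324 and 239 TPM in Veh for Hspd1 and Hspe1.

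The CCT genes in the list were 10, of which 8 were tested and 0 passed in edgeR's quasi-likelihood test, in DESeq2 or at an unadjusted p of 0.05. The 7 subunit genes other than the testis form Cct6b had log2 fold changes from 0.00 (Cct4) to 0.14 (Cct2). The family median was 0.068. Cct2 was at 388, 357 and 346 CPM in Hcy and at 319, 322 and 347 in Veh, with Veh replicate 3 just above the lowest Hcy library and an interval from −0.02 to 0.31. Cct5, the most abundant subunit at a mean of 520 TPM, was at 516, 495 and 506 CPM in Hcy and at 469, 452 and 537 in Veh, from −0.12 to 0.23. Cct6a was the subunit without overlap, at 359 to 370 and 327 to 356 CPM. The subunits varied little in Hcy, with coefficients of variation from 0.905% (Cct8) to 5.92% (Cct2), and from 4.26% (Cct6a) to 12.1% (Cct7) in Veh. Reads of Cct8 may include some of Usp16, which overlaps it on the opposite strand. The first subunit, Tcp1, was at 275 ± 5.92 and 262 ± 23.4 CPM (SD, n = 3), with a log2 fold change of 0.07 ± 0.08 (SE).

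J proteins of class A and B serve HSP70 in general folding. All 4 class A and 9 of 11 class B genes were tested, and 0 of either passed in edgeR's quasi-likelihood test, in DESeq2 or at an unadjusted p of 0.05. Their log2 fold changes lay between −0.19 and 0.18. Dnaja1, the most abundant J protein gene at 360 TPM, was at 327, 322 and 332 CPM in Hcy and at 292, 291 and 338 in Veh. Veh replicate 3 alone exceeded the Hcy values, and the interval ran from −0.08 to 0.27. The mitochondrial Dnaja3 was at 47.6, 48.5 and 46.5 CPM in Hcy and at 52.0, 54.5 and 49.1 in Veh, without overlap, at −0.13 ± 0.07 (SE). Dnajb1 or HSP40, a classical gene of the heat shock response, was at 54.1, 56.8 and 56.0 CPM in Hcy and at 58.1, 62.4 and 62.5 in Veh. The Hcy values were all lower, the log2 fold change was −0.13 ± 0.07 (SE), from −0.29 to 0.03, and the edgeR quasi-likelihood adjusted p was 0.490 (Benjamini-Hochberg). Dnajb4 was at 66.9 ± 4.20 and 63.1 ± 2.98 CPM, Dnajb2 at 53.1 ± 0.928 and 58.4 ± 4.30, and Dnajb6, which suppresses aggregation, at 106 ± 1.41 and 106 ± 5.73 (SD, n = 3, Hcy first). None of these 3 separated.

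Class C holds the specialised J proteins. Of its 27 genes 24 were tested, 16 fitted lower and 8 higher, beside 7749 lower and 6854 higher over all tested genes. In edgeR's quasi-likelihood test or in DESeq2, 0 passed, with 1 in each direction at an unadjusted p of 0.05. Dnajc9, a chaperone of histones, was at 61.5, 62.3 and 61.9 CPM in Hcy and at 40.1, 40.5 and 57.8 in Veh. The Hcy libraries had a coefficient of variation of 0.641%, while Veh replicate 3 stood apart from the other 2 Veh libraries. The log2 fold change was 0.43 ± 0.13 (SE), from 0.12 to 0.73, with an adjusted p of 0.183 in the edgeR quasi-likelihood test (Benjamini-Hochberg), and without Veh replicate 3 it was 0.62 with an adjusted p of 0.000459. Leaving out any other library kept the adjusted p above 0.05, up to 0.436. Dnajc24, which acts in the modification of elongation factor 2, was at 7.68, 6.52 and 7.52 CPM in Hcy and at 8.37, 9.05 and 10.4 in Veh, all lower in Hcy, at −0.35 ± 0.15 (SE) and an edgeR adjusted p of 0.338.

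Among the other class C genes, Dnajc8, which associates with the spliceosome, led by level with 166 TPM in Hcy and 156 in Veh and did not separate. Dnajc19, of the import motor of mitochondria, was at 29.1 ± 3.91 and 31.4 ± 6.44 CPM, and reads of Fxr1, which overlaps it on the other strand, may have been counted there. Dnajc5, the cysteine string protein of vesicles, was at 33.6 ± 3.60 and 36.9 ± 6.78 CPM (SD, n = 3). Dnajc14, chosen after its values were seen, separated with little spread in either group, at 38.7 to 39.2 CPM in Hcy and 41.7 to 43.2 in Veh, a log2 fold change of −0.13 ± 0.07 (SE).

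The genes with HSF names had log2 fold changes from −0.19 to −0.02. Of 4 tested, Hsf1, Hsf2, Hsf4 and the partner Hsf2bp, 0 passed in edgeR's quasi-likelihood test, in DESeq2 or at an unadjusted p of 0.05. Hsf1, the main factor of the heat shock response, was at 27.4, 26.4 and 25.4 CPM in Hcy and at 28.8, 29.8 and 29.8 in Veh. All Hcy values lay below all Veh values, at −0.16 ± 0.08 (SE), from −0.35 to 0.03. Hsf2 overlapped, at 18.7 ± 1.31 and 19.1 ± 0.805 CPM, as did Hsf4, known from the lens, at 4.01 ± 1.06 and 4.58 ± 0.598 CPM (SD, n = 3). These are levels of mRNA. The activation of Hsf1 protein was not measured.

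**Figure D5:**
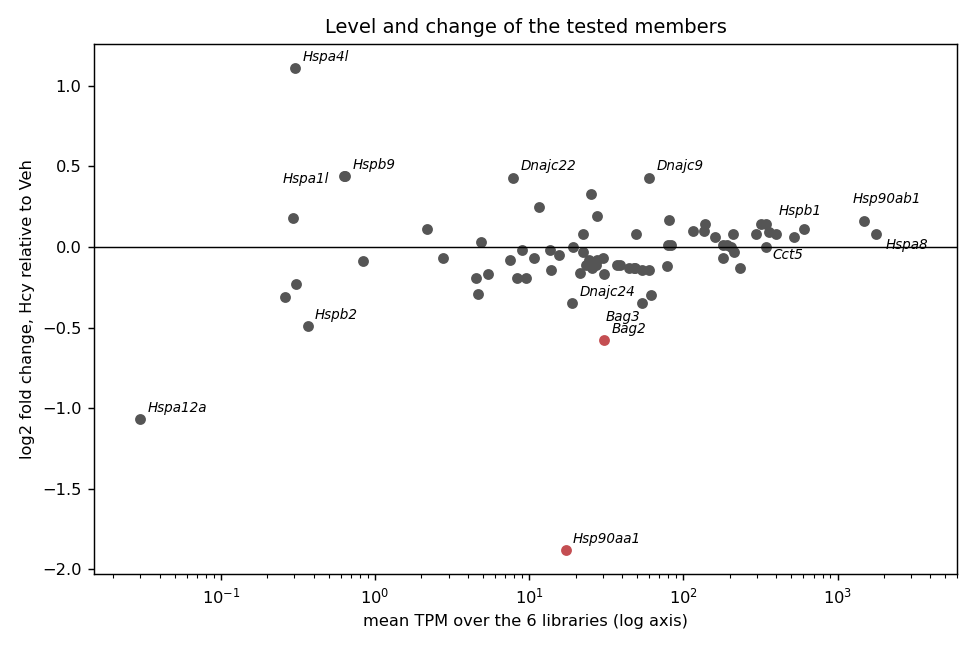
Mean TPM over the 6 libraries (log axis) against the fitted log2 fold change of Hcy relative to Veh, 1 point a tested member, with calls by adjusted p in red. The most abundant genes, Hspa8 and Hsp90ab1, lie at 0.08 and 0.16, and apart from Hsp90aa1 values beyond 1 come from members below 1 TPM.

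The 11 untested members were Hspb3, Hspb7, Dnajb7, Dnajb8, Dnajc5b, Dnajc5g, Dnajc6, Hsf5, Bag5 and 2 rows named Cct8l1, of which 6 had 0 counts in all 6 libraries.

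Genes that work with the members but carry other names were counted from fixed lists. Over all tested genes, 2.34% passed by adjusted p and 13.4% reached 0.05 before adjustment in edgeR's quasi-likelihood test. No test compares the lists with these shares. Of 31 co-chaperones of HSP90 and HSP70, 0 passed in edgeR's quasi-likelihood test at an adjusted p of 0.05, 2 lay at or under 0.05 before adjustment, and the median log2 fold change was −0.010. The 3 with the smallest p were Fkbp5 (0.28), Tomm70 (−0.19) and Chordc1 (−0.15). Of 15 partners of CCT and prefoldin, 0 passed, 1 (Tbcc, −0.24) reached 0.05 before adjustment and the median was −0.066 (−0.147 to 0.073 with 1 library left out, positive without Veh replicate 3), and Tbce (−0.18) and Tbcd (0.11) followed. Of 13 tested mitochondrial chaperones and proteases, 0 passed by either p, the median was 0.028, and Lonp1 (0.16), Clpp (−0.23) and Grpel1 (−0.20) had the smallest p. Of 15 ER chaperones, 0 passed, 1 (Hspa5, 0.25) reached 0.05 before adjustment and the median was 0.050, and Pdia4 (0.14) and Sdf2l1 (−0.21) followed. Hspa5 had an adjusted p of 0.091 in edgeR's quasi-likelihood test, 0.0192 in DESeq2 and 0.0226 in edgeR without Veh replicate 3. Its edgeR adjusted p was above 0.05, up to 0.389, without any other 1 library. DESeq2 called 0 genes in these 4 lists by adjusted p and fold together.

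Other genes known to respond to heat or to HSF1 had values on both sides of zero. Of 16, all tested, 1 was lower by adjusted p and 0 were higher, 2 were higher and 3 lower at an unadjusted p of 0.05, and the median was 0.035. Over all tested genes, 1.01% were lower by adjusted p and 13.4% passed the unadjusted p in either direction, and no test compares the list with them. The called gene was Zfand2a, or AIRAP, which tunes the proteasome under stress, at 64.3, 61.8 and 66.0 CPM in Hcy and at 77.1, 86.7 and 83.5 in Veh. All Hcy values were lower, with a log2 fold change of −0.36 ± 0.08 (SE) and an adjusted p of 0.0481 in the edgeR quasi-likelihood test (Benjamini-Hochberg). The call was lost when library totals alone set the scale (edgeR adjusted p 0.0529) and without any 1 library other than Veh replicate 3, with adjusted p-values from 0.0768 to 0.199. Cryab, a small heat shock protein whose name the rule does not take and which is abundant in muscle, was at 3.02, 3.43 and 2.45 CPM in Hcy and at 6.11, 4.84 and 7.2 in Veh. It did not overlap, at −1.03 ± 0.22 (SE) with an adjusted p of 0.0504 in the same edgeR test and 0.00823 in DESeq2. The smooth muscle markers were also lower in the Hcy libraries, and their part in the Cryab value was not tested. Serpinh1 or HSP47, the collagen chaperone of the ER, had values in the other direction, at 1300, 1200 and 1200 CPM in Hcy and at 1020, 1000 and 1040 in Veh, with a log2 fold change of 0.28 ± 0.06 (SE) and an edgeR quasi-likelihood adjusted p of 0.0636 (Benjamini-Hochberg). It passed, higher in Hcy, at an adjusted p of 0.00744 in DESeq2, 0.0462 in edgeR with library totals and 0.0102 in edgeR without Veh replicate 3. Serpinh1 missed without any other 1 library, at edgeR adjusted p-values up to 0.279.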

How the data were processed

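RNA-seq of 3 Hcy and 3 Veh libraries of rBMECs was analysed. The authors deposited raw read counts per gene, with gene positions and lengths. The study's methods name a rat genome assembly for the alignment, but the table does not say whether its positions follow that assembly. Per the labels, the submitters' processing notes list fastp, HISAT2 2.2.1, StringTie 2.2.3, Cufflinks, featureCounts 2.0.6 and DESeq2 1.42.0, without roles. Whether counting used the strand or kept reads that map to several places is not given in the sources used here, so overlapping genes and near-identical copies may share or lose reads. The authors' second table, with normalized values, fold changes and p-values of their own comparison, was not used.

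Genes with at least 10 counts summed over 6 libraries were kept (14603 of 33566). Depth was 14024997 to 16764584 counts a library. TMM factors (0.977 to 1.02) scaled the libraries, and condition was the only term in edgeR's quasi-likelihood test (edgeR 4.0.16, limma 3.58.1, R 4.3.3), with p-values adjusted by Benjamini-Hochberg over all tested genes. Scripts were tested on simulated data. Levels between genes were compared as TPM, computed from counts and deposited lengths. Single values were compared with exact two-sided permutation tests.

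Members and lists were chosen with earlier results of these data known. Members named with values were those called, those with the smallest p or highest TPM of a family, 33 fixed members (of which 31 were tested), and those with an unadjusted p of at most 0.05. Outside this rule and chosen after their values were seen, values are also given for Bag5l1, Cct4, Cct6a, Cct7, Cct8, Dnajb2, Dnajc14, Hspa12a, Hspa12b, Hspb11 and Tcp1. In the other lists the 3 genes with the smallest p and any called gene were named. Alternatives were DESeq2 1.42.0, other scalings, count minimums and prior counts, protein-coding rows, unadjusted p, the replicate number as a block, and leaving out each library. Summing rows that match 1 Swiss-Prot protein was added after seeing the data.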

Additional observations from a re-analysis of the deposited data

How the results depend on the processing

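The number of members called by adjusted p and fold together was 1 in edgeR and 1 in DESeq2, 0 with a minimum of 50 summed counts, 2 by unadjusted p, and 0 to 1 with 1 library left out. By adjusted p alone it was 2, and 3 in DESeq2, 1 with the minimum of 50, and 0 to 5 with 1 library left out. The 5 were found without Veh replicate 3: Hsp90ab1, Hspd1 and Dnajc9 higher, Hsp90aa1 and Bag2 lower. Over all tested genes, 71 were called by both criteria, 109 with no filter beyond 1 count, 374 by unadjusted p, and 39 to 119 with 1 library left out. The 119 were also found without Veh replicate 3. Same-numbered libraries correlated at 0.0237, 0.166 and 0.0581 in their deviations over 12296 genes, which does not pair them. With the replicate number as a block, 0 members were called by either rule, with Hsp90aa1 at −1.76 (adjusted p 0.0807) and Bag2 at −0.58 (adjusted p 0.0611), and Zfand2a had an adjusted p of 0.0922. Over 16 alternatives, Hsp90aa1 ran from −2.23 to −1.36 and Bag2 from −0.64 to −0.48, each called by adjusted p in 10. Zfand2a was called by adjusted p in 9 of them, Serpinh1 in 3 and Hspa5 in 2. At the minimum of 50, Hsp90aa1 had an adjusted p of 0.0533. The cause of these changes was not tested. The median of the tested members ran from −0.042 to 0.008 and the median of CCT and prefoldin partners ran from −0.147 to 0.073 with 1 library left out, both highest without Veh replicate 3. Of heat shock response genes outside the name rule, 1 (Cryab) was called by both criteria with DESeq2, library totals, no filter, filterByExpr, protein-coding rows or summed rows. With 1 library left out, log2 fold changes crossed zero for Bag1 (−0.15 to 0.08), Dnajb6 (−0.03 to 0.05), Hspb1 (−0.01 to 0.23), Hspa1b (−0.17 to 0.03), Hspe1 (−0.23 to 0.01), Dnajc19 (−0.21 to 0.07) and Hsf2 (−0.08 to 0.01). The scalings moved the median of all genes from −0.015 to −0.012. With 3 libraries a group, the 95% intervals of most members included 0, and p-values that missed the threshold do not show equal levels.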
